A study of Mus musculus with 21 samples.

Results

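Chromosomes 9 and 12 of the mouse were followed through 21 liver tumours as 8902 probes of an oligonucleotide array, out of 96471 probes that the arrays carry on chromosomes 1 to 19, X and Y. The members are all probes placed on either chromosome, 5174 on chromosome 9 and 3728 on chromosome 12, without 230 probes from position 114400000 of chromosome 12 on, where the antibody heavy chain locus begins in the mm9 build. The probes of chromosome 9 ran from 3084100 to 124061581, a span of 121 Mb, and those of chromosome 12 from 3095298 to 114390598, a span of 111 Mb. Both chromosomes were chosen by their mean log2 ratios in these same arrays, which were already known to be low in some tumours and to go together. Their levels are therefore given as a description, without a test, and only the comparison of the treatment groups, which the choice did not use, was tested. Loss of the whole chromosome was limited to few tumours, with chromosome 9 lost in 2 tumours of 1 mouse and chromosome 12 in 3 tumours of 2 mice. Counted by tumours, no chromosome was wholly lost in more than chromosome 12 (3 tumours). Chromosomes 4, 9 and 13 were lost in 2 tumours each, chromosomes 6 and 8 in 1 each, and the others in 0 before GC correction. Counted by mice after GC correction, chromosomes 4, 12 and 13 were lost in 2 each, and chromosomes 6, 8, 9 and 19 in 1 each.

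The tumours came from C57BL/6 mice with diet-induced NASH, the inflamed fatty liver from which liver cancer can arise. All animals ate CD-HFD, a diet rich in fat and poor in choline, for 12 months. Of the tumours, 12 came from animals that were also given anti-PD1, an antibody that lifts a brake on T cells, for 8 weeks. The other 9 tumours came from animals on the diet alone. Lesions whose names share a leading number were read as tumours of one mouse, which gave 7 mice in each group, although the submitters count each tumour as a mouse. Genomic DNA of fixed and embedded tumour sections was labelled with Cy3 and hybridized against Cy5-labelled DNA of a reference pool, named in the labels as liver tails, with no dye swap. Slide 1 held 4 tumours of each group, slide 2 held 4 of each, and slide 3 held 4 anti-PD1 tumours and 1 CD-HFD tumour. Slide 1 carried another probe design than slides 2 and 3, with 720 probes of chromosome 9 and 439 of chromosome 12 common to both. Sections hold stroma and immune cells as well as tumour cells, and the arrays measure no expression of cell type markers.

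An array of this kind compares the amount of tumour DNA with that of normal DNA at each probe. Cells that lose or gain a whole chromosome in a faulty division carry fewer or more copies of all its genes at once, and such losses and gains are common in liver cancer of mice and people. Chromosome 9 of the mouse holds genes of the DNA damage response (*Atm*, *Chek1*), of TGF-beta signalling (*Tgfbr2*, *Smad3*), of lipid transport (the *Apoa1* cluster) and of the T cell receptor complex (*Cd3e*, *Cd3d*, *Cd3g*). Chromosome 12 holds *Akt1*, *Hif1a* and *Mycn*, the glycogen phosphorylase of the liver *Pygl*, the lipoprotein gene *Apob*, and the imprinted *Dlk1*-*Dio3* domain, in which each gene is read from the copy of one parent only.

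Values are log2 ratios of tumour over reference after the median of each array was set to 0. A value of 0 is thus the middle of that array, and the loss of 1 of 2 copies in every cell would give −1. Fewer tumour cells in a section and a loss carried by only some tumour cells lower the size of a value alike and cannot be told apart in bulk DNA. Between arrays 65.0 to 99.99% of spots were well above background in the tumour channel, and the spread between neighbouring probes ran from 0.41 to 0.68. The level of a chromosome is the mean over 2766 to 3126 probes of chromosome 9 or 2008 to 2158 probes of chromosome 12, with a standard error over probes of at most 0.013 and 0.017.

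Single probes carry much less information, as 6 of them show, picked near the start, the middle and the end of each chromosome from probes in listed genes that every array measured. They are printed 5′ to 3′ with G and C in capitals, since levels were also computed with a correction for GC content. Positions in mm9 are those of the array files, and the sequences were found again in the GRCm38 genome to read off what lies there.
Yap1 probe, chr9:7953833-7953892, intron: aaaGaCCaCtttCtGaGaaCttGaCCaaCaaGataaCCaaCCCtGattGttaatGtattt
Map2k1 probe, chr9:64048143-64048202, intron: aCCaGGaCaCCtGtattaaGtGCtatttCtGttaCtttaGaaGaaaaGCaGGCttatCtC
Tgfbr2 probe, chr9:116075371-116075430, intron: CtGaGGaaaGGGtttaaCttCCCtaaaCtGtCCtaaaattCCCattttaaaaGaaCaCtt
Dnmt3a probe, chr12:3814049-3814108, intron: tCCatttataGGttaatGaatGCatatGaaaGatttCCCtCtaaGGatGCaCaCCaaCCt
Pygl probe, chr12:71298714-71298772, coding exon: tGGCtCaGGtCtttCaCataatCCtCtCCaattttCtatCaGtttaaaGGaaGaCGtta
Akt1 probe, chr12:113911299-113911353, intron: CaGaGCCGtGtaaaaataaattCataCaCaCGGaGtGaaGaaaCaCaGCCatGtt

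The genes of these probes stand for roles met again below: *Yap1* is the coactivator of the Hippo growth pathway, *Map2k1* encodes the kinase MEK1, *Tgfbr2* a TGF-beta receptor, *Dnmt3a* a DNA methyltransferase, and *Akt1* a kinase of the PI3K pathway. The *Tgfbr2* probe was above 0 in all 21 tumours (from 0.25 to 1.31, median 0.72), and the *Pygl* probe ran from −0.72 to 0.12 (median −0.28). Over the 1156 probes of both chromosomes that all arrays measured, the medians ran from −0.81 at the 5th percentile to 0.76 at the 95th. Around its own median a probe varied between tumours with a median SD of 0.27. Lesion 6 of anti-PD1 mouse 608 (608 L6) lay below the median of each of the 6 probes, with differences of −0.43 at *Yap1*, −0.33 at *Map2k1*, −0.45 at *Tgfbr2*, −0.15 at *Dnmt3a*, −0.44 at *Pygl* and −0.81 at *Akt1*. Lesion 1 of the same mouse (608 L1) was above the median at 4 of them, up to 0.36 at *Dnmt3a*, although its chromosomes as a whole were the lowest of the series. A single probe thus did not show what the chromosome showed, and means over many probes are used from here on.

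The chromosome 9 level was −0.38 in 608 L1 and −0.38 in 608 L6, and −0.099 to 0.071 (median −0.012) in the other 19 tumours. The 2 lesions of mouse 608 stood apart, with no other tumour below −0.1. Their chromosome 12 levels were −0.42 and −0.35, and lesion 1 of CD-HFD mouse 2064 (2064 L1) was at −0.30. In the other 18 tumours the chromosome 12 level ran from −0.058 to 0.17, with a median of 0.031. In these 3 tumours the lost chromosomes were the lowest or the second lowest of their 20, and the percentage of probes inside lost segments (mean at or below −0.2) was 100%. If 1 of 2 copies was gone, the levels of 608 L1 would correspond to 46.5% of the cells for chromosome 9 and 50.4% for chromosome 12, those of 608 L6 to 46.1% and 42.7%, and that of 2064 L1 to 37.9% for chromosome 12. Array ratios are often compressed, so these percentages are a reading of the scale and not a count of cells.

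**Figure D1:**
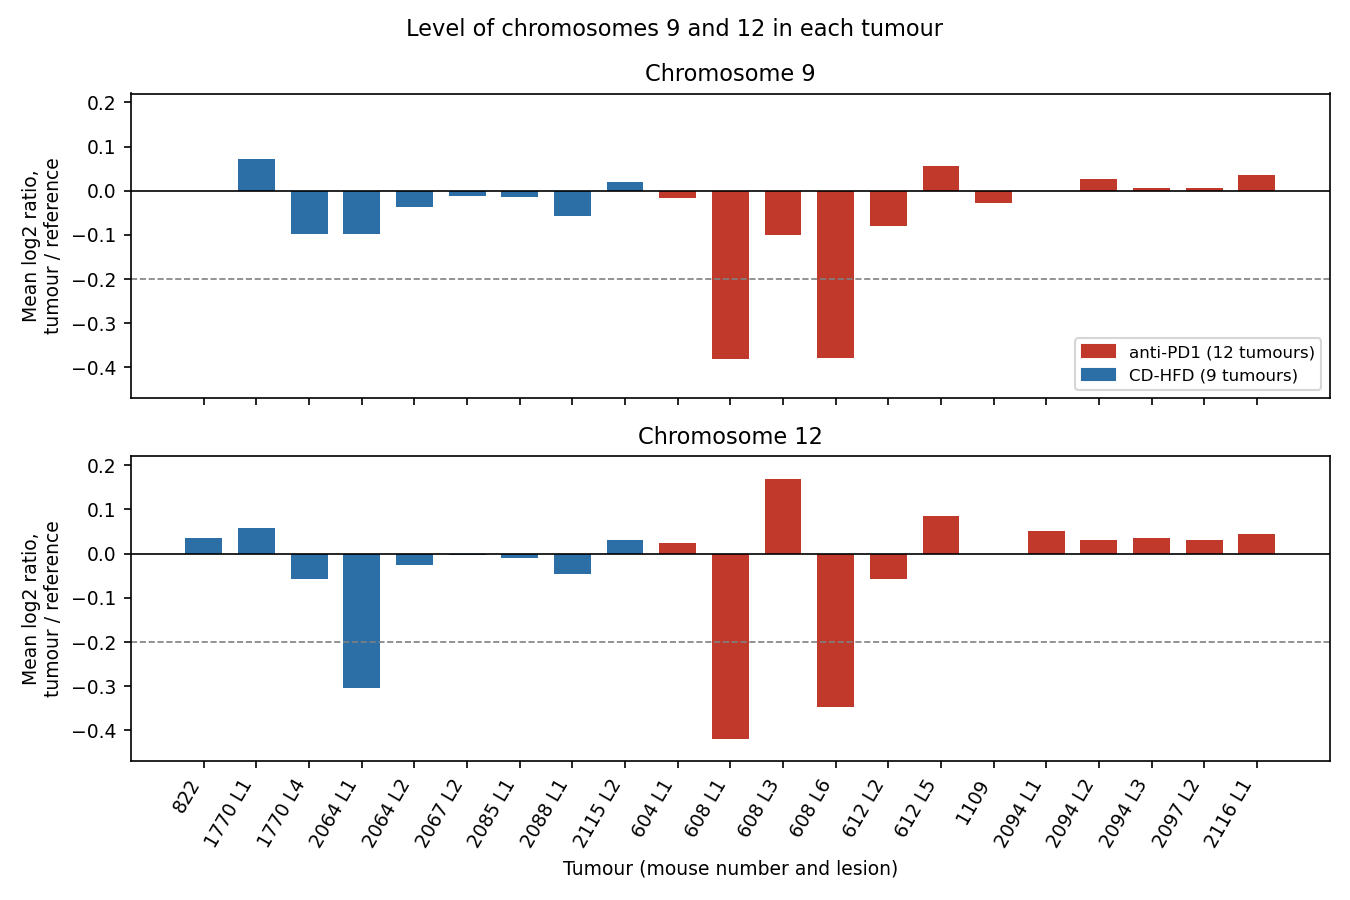
Mean log2 ratio of tumour over reference (y axis) of all probes of chromosome 9 (top) and chromosome 12 (bottom) in each of 21 tumours (x axis), with CD-HFD in blue, anti-PD1 in red and a dashed line at −0.2. On chromosome 9 only the bars of 608 L1 and 608 L6 pass the line at −0.38, and on chromosome 12 these and 2064 L1 at −0.30 do, while 608 L3 reaches 0.17.

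The losses ran from end to end. On chromosome 9 the proximal, middle and distal stretches of equal length were at −0.38, −0.39 and −0.37 in 608 L1 and at −0.33, −0.39 and −0.42 in 608 L6. On chromosome 12 the same stretches were at −0.43, −0.41 and −0.42 in 608 L1, at −0.32, −0.26 and −0.43 in 608 L6 and at −0.29, −0.21 and −0.37 in 2064 L1. No stretch of a lost chromosome was near 0. Chromosome 9 of 2064 L1 was lower at its distal stretch (−0.14) than at its proximal (−0.084) and middle ones (−0.076), and it held 1 segment, which did not reach −0.2. A correction for the GC content of each probe and of the 50 kb around it left the levels at −0.39 and −0.42 in 608 L1, −0.36 and −0.35 in 608 L6, and −0.11 and −0.33 in 2064 L1, for chromosomes 9 and 12 respectively.

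The third lesion of mouse 608 that was measured (608 L3) had no whole loss of either chromosome. Its chromosome 9 level was −0.099, the lowest outside the whole losses, and its chromosome 12 level of 0.17 was the highest of all 21 tumours. Lesions 1 and 6 lay on slide 1 and lesion 3 on slide 3, so lesion and slide cannot be told apart in this mouse. The second lesion of mouse 2064 (2064 L2), on the same slide as the first, had levels of −0.036 and −0.025, without a whole loss. Mouse 1770 had 0.071 and 0.058 in lesion 1 and −0.098 and −0.058 in lesion 4. Mouse 612 had −0.079 and −0.057 in lesion 2 and 0.055 and 0.086 in lesion 5. In mouse 2094 the 3 lesions were close to each other, from 3.4e-06 to 0.026 on chromosome 9 and from 0.031 to 0.051 on chromosome 12. Tumours of one mouse differed by a median of 0.063 on chromosome 9 (9 pairs) and tumours of different mice by 0.067 (201 pairs), and on chromosome 12 by 0.12 and 0.077.

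To remove the offsets of probes, the median of each probe over the arrays of one design was subtracted and the array centred again, which gives values relative to the median array. In windows of 1 Mb on this scale, 113 of 114 windows of chromosome 9 were below 0 in 608 L1 and 114 of 114 in 608 L6. On chromosome 12 the counts were 88 of 90 in 608 L1, 90 of 90 in 608 L6 and 90 of 90 in 2064 L1. The window medians were −0.31 and −0.35 in 608 L1 (chromosomes 9 and 12), −0.28 and −0.27 in 608 L6, and −0.36 on chromosome 12 of 2064 L1. The windows of 608 L1 scattered most, from −0.76 to 0.013 on chromosome 9, and this array was also the dimmest, with 65.0% of spots well above background and a median tumour signal of 27.0 against up to 539 on other arrays. The windows of 608 L6 stayed within −0.46 to −0.17 on chromosome 9 and within −0.37 to −0.16 on chromosome 12.
Small shifts over most windows were also seen. On chromosome 9, 109 of 114 windows were below 0 in 608 L3 (median −0.085, from −0.23 to 0.069). In 2064 L1 101 of 114 were (median −0.099, from −0.42 to 0.10). On chromosome 12 of 608 L3, 1 of 90 windows was below 0 and the median was 0.15.

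**Figure D2:**
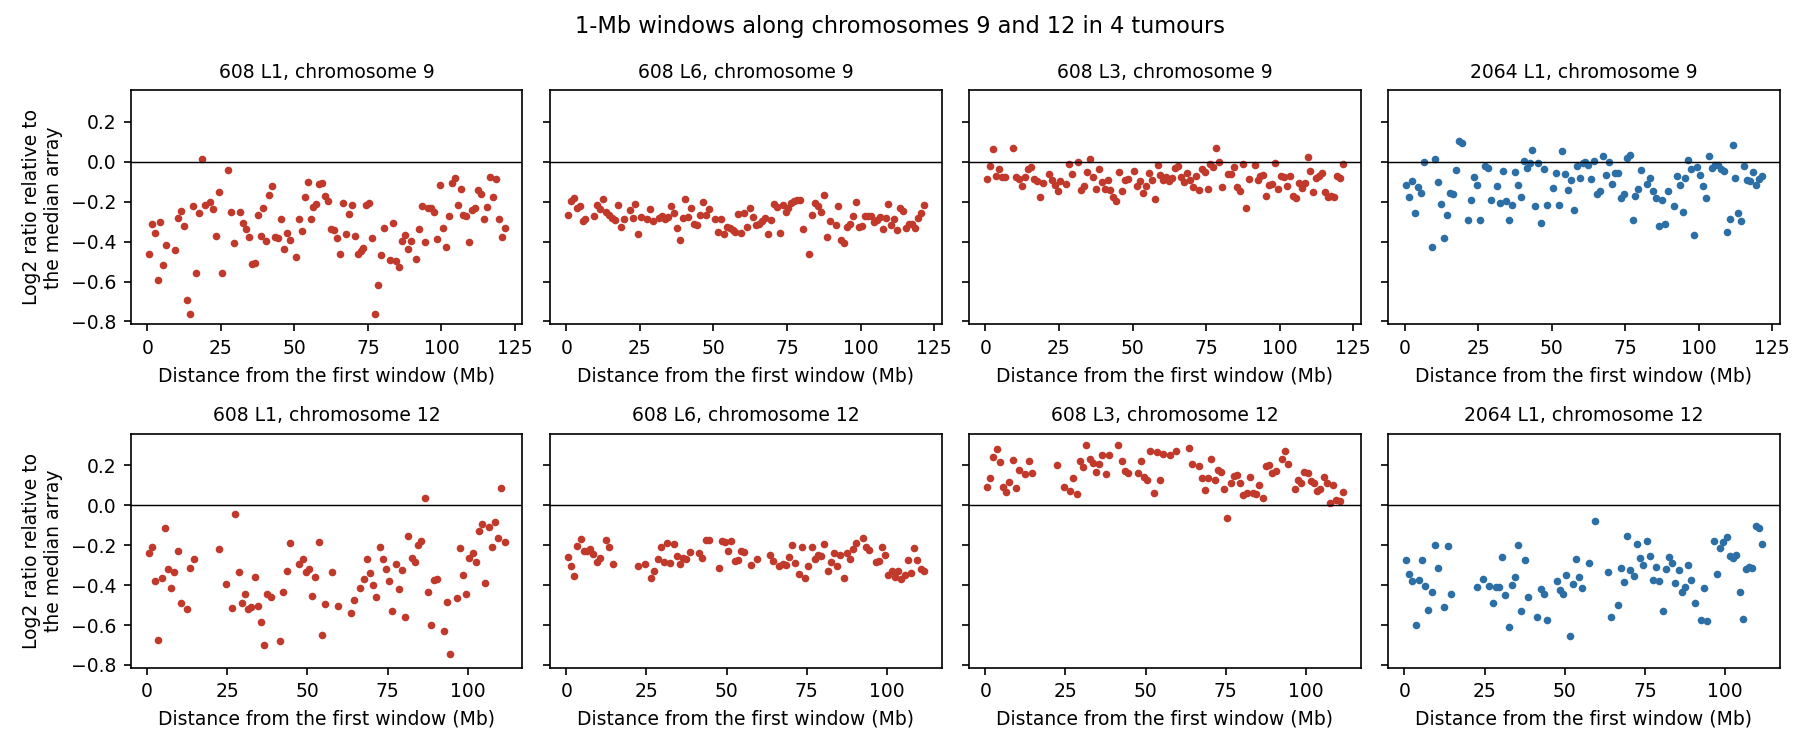
Log2 ratio relative to the median array (y axis) of windows of 1 Mb against the distance from the first window in Mb (x axis), for chromosome 9 (top row) and chromosome 12 (bottom row) in 608 L1, 608 L6, 608 L3 and 2064 L1, with anti-PD1 in red and CD-HFD in blue. The windows of 608 L6 lie in a narrow band below 0 along both chromosomes, from −0.46 to −0.17 on chromosome 9, those of 608 L1 scatter widely, and on chromosome 12 of 608 L3 1 of 90 windows is below 0.

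Without a correction for GC content, segmentation cut both chromosomes into many pieces. There were 74 segments on chromosome 9 over the 21 tumours, 14 of them lost, and 52 on chromosome 12, 18 of them lost. A whole chromosome in 1 segment was found in 12 tumours for chromosome 9 and in 3 for chromosome 12. After GC correction each tumour had 1 segment on each chromosome, and the lost segments were the 2 whole losses of chromosome 9 and the 3 of chromosome 12. A short lost piece of chromosome 9 was cut with similar ends in 1770 L4, 2064 L2, 2094 L1, 2094 L3, 2097 L2, 608 L3, 1109 and 822. In 608 L3 and in the tumours of anti-PD1 mouse 1109 and CD-HFD mouse 822 it ran from 20524427 to 21913248, around *Dnmt1*, *Icam1*, *Keap1* and *Smarca4*. In a fixed stretch of 116 probes that starts with this piece and ends before it, the surroundings of probes hold 49.3% G and C, against 43.4% over the autosomes. The median level of the stretch was −0.29, and 16 tumours were at or below −0.2, against 3 after GC correction. The last 8 Mb kept of chromosome 12, with 48.8% G and C and a median of −0.27, gave 14 tumours at or below −0.2 before and 3 after.

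Just inside the boundary at 114400000 the last 1 Mb kept had a median of −0.36 over the tumours (from −0.70 to −0.071), and the heavy chain locus left out had 0.010 (from −0.49 to 0.24). After GC correction the medians were 0.10 and −0.053. The locus was at −0.49 in 608 L1, −0.39 in 608 L6 and −0.30 in 2064 L1 beside chromosome 12 levels of −0.42, −0.35 and −0.30.

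Over the 21 tumours the levels of chromosomes 9 and 12 went together, with a Pearson r of 0.85 and a Spearman rho of 0.71. Both levels were below 0 in 10 tumours and both above 0 in 9, and chromosome 9 was below with chromosome 12 above 0 in 2, the tumours 604 L1 and 608 L3. Some levels were smaller than their standard error over probes, so their sign says little. Such levels were 3.4e-06 in 2094 L1 and 0.00043 in 822 on chromosome 9, and −0.00055 in 1109 on chromosome 12. The points share each array's centring, the mouse for some lesions, the slide and a trend with GC content, so r is a description and has no p. Chromosomes 9 and 12 have a mean GC content around their probes of 43.7% and 43.1%, on either side of the 43.4% over the autosomes. After the part of the levels that follows chromosome GC content was removed, r was 0.88. Among all 171 pairs of autosomes r ran from −0.82 to 0.87 with a median of −0.085, and the pair of chromosomes 9 and 12 was the 2nd highest after chromosomes 5 and 19. Over the 14 mouse means r was 0.87, within anti-PD1 tumours 0.90 (n = 12) and within CD-HFD tumours 0.77 (n = 9). The Spearman rho was 0.88, 0.59 and 0.98 in the same order.
The size of r depended on which tumours were kept. Without 608 L1 and 608 L6, the 2 tumours farthest from the median chromosome 9 level, r was 0.48 and the rank 22 of 171. Without all 3 tumours with a whole loss it was 0.31 (n = 18). The point that then lay apart was 608 L3, and without it as well r was 0.93 over 17 tumours whose levels spanned only −0.098 to 0.071 on chromosome 9 and −0.058 to 0.086 on chromosome 12. By slide r was 0.99 on slide 1 (n = 8), which held 608 L1 and 608 L6, and 0.90 on slide 2 (n = 8), which held 2064 L1. On slide 3 it was −0.53, where 5 tumours with 608 L3 among them are too few for a relation. The Spearman rho was 0.93, 0.69 and −0.10 on slides 1, 2 and 3. Each r by slide thus rests on few tumours with far points among them. GC-corrected levels gave 0.85 over all tumours, 0.23 without the 3 with a whole loss, and 0.96 without those 3 and 608 L3. Over these 17 tumours the pair ranked 2 of 171 before GC correction and 1 after it. But 608 L3 was left out after it was seen to lie off the relation of this pair, and no other pair had a tumour left out on its own values. The r and the ranks without 608 L3 are raised by that choice and are no evidence of a relation. Without all lesions of mouse 608 r was 0.79 before GC correction (n = 18).

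**Figure D3:**
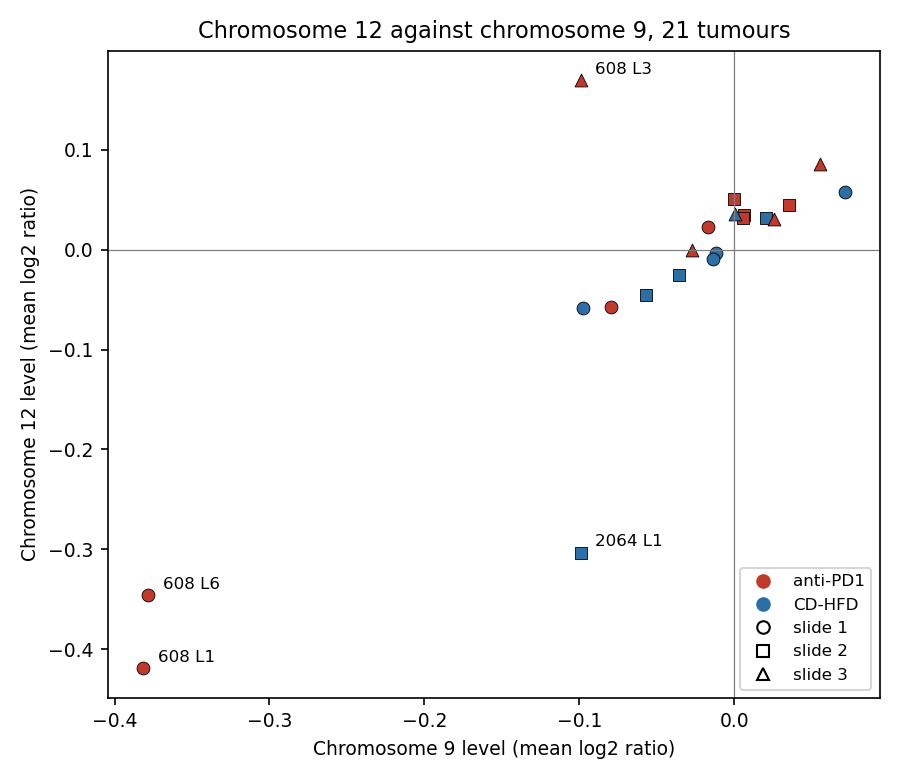
Mean log2 ratio of chromosome 12 (y axis) against that of chromosome 9 (x axis) in 21 tumours, with the group as colour and the slide as shape. Most tumours lie on a short rising line near 0, 608 L1 and 608 L6 lie far down both axes, and 2064 L1 (−0.099 and −0.30) and 608 L3 (−0.099 and 0.17) lie off the line.

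The other chromosomes place these losses. By the mean over 21 tumours, in which mouse 608 counts with 3 lesions, chromosome 9 was 4th lowest of 20 (−0.051) after chromosomes 7, 4 and 11, and chromosome 12 was 6th (−0.032), between chromosomes 19 (−0.036) and 17 (−0.023). By the mean over 14 mice chromosome 9 was at −0.031 ± 0.078 (SD, n = 14), above chromosome 19 at −0.043, and chromosome 12 at −0.014 ± 0.075 (SD, n = 14), above chromosome 17 at −0.023. These neighbours lie within one another's spread. Without mouse 608 the means over mice were −0.011 for chromosome 9 and −0.00022 for chromosome 12. After GC correction the means over tumours of chromosomes 9 (−0.051) and 12 (−0.047) were the lowest of 20, but their medians (−0.0020 and 0.011) lay above those of chromosomes 7 (−0.027), 19 (−0.021) and 4 (−0.019). The chromosomes whose levels ran most closely against both were 15 (r −0.80 with chromosome 9, −0.82 with chromosome 12) and 14 (−0.73 and −0.71). Without 608 L1 and 608 L6 these were −0.53 and −0.61 for chromosome 15 and −0.17 and −0.24 for chromosome 14, and chromosome 1 was at −0.64 and −0.74. Chromosome 15 was at 0.38 in 608 L1, 0.38 in 608 L6 and 0.39 in 2064 L1, the 3 tumours with a whole loss of chromosome 12, and at 0.15 in 608 L3. In GC-corrected segments 608 L1 and 608 L6 had wholly lost chromosomes 9 and 12 and no others, whereas 2064 L1 had lost chromosome 12 with chromosomes 4, 6 and 13. Whole losses of any chromosome were found in 5 tumours.

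**Figure D4:**
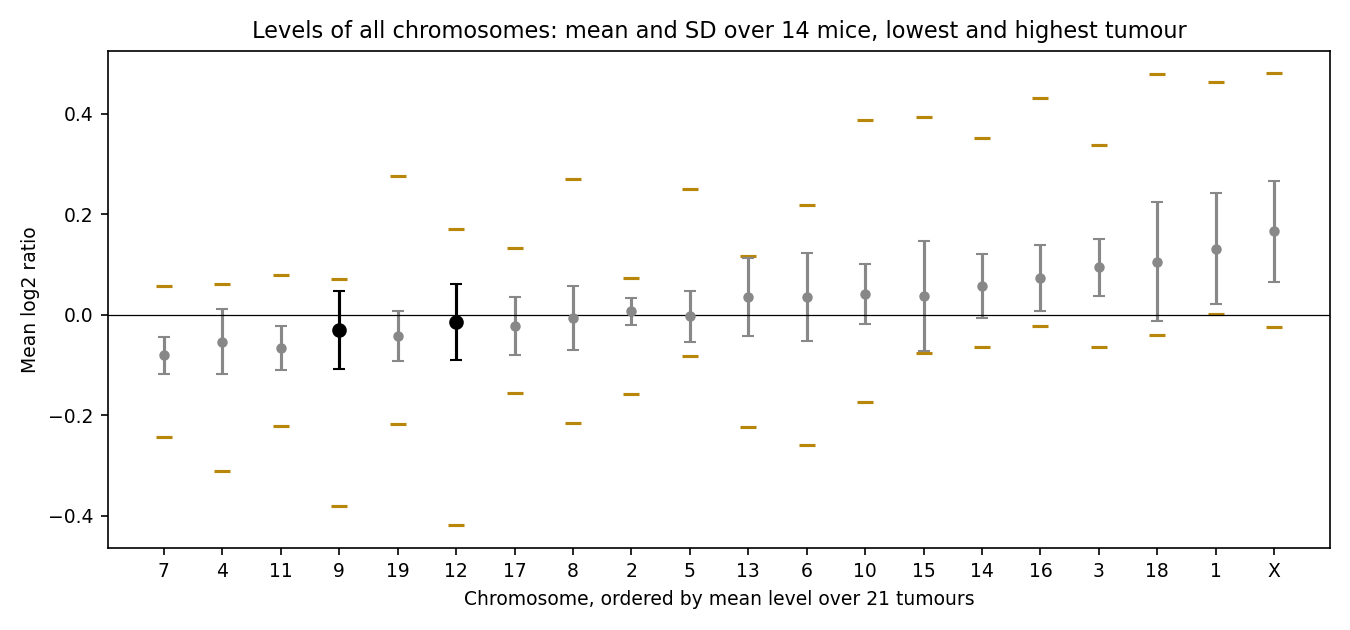
Mean log2 ratio (y axis) of each of 20 chromosomes (x axis, ordered by the mean over 21 tumours), as mean and SD over 14 mice (points and bars) with the lowest and the highest tumour (dashes) and chromosomes 9 and 12 in black. Chromosomes 9 and 12 have the 2 lowest dashes, at −0.38 and −0.42, and means within the spread of their neighbours.

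The question the design asks is whether tumours that grew under anti-PD1 differ in copy number from those on CD-HFD alone. Chromosome 9 levels ran from −0.38 to 0.055 (median −0.0083) in 12 anti-PD1 tumours and from −0.099 to 0.071 (median −0.013) in 9 CD-HFD tumours. The means of mice were −0.042 ± 0.11 (SD, n = 7) and −0.020 ± 0.031 (SD, n = 7). Chromosome 12 levels ran from −0.42 to 0.17 (median 0.031) and from −0.30 to 0.058 (median −0.0089), with means of mice of −0.0066 ± 0.086 (SD, n = 7) and −0.022 ± 0.068 (SD, n = 7). The groups overlapped on both chromosomes. In limma with the mouse as a random block, anti-PD1 minus CD-HFD was −0.047 ± 0.049 (standard error) for chromosome 9, which did not pass the threshold (adjusted p = 0.877, two-sided, Benjamini-Hochberg over 20 chromosomes). For chromosome 12 it was 0.0061 ± 0.057 (standard error, adjusted p = 0.917 in limma). An adjusted p of 0.05 in limma was passed by 0 of the 20 chromosomes (0.00%), and before adjustment a p under 0.05 was reached by 0. With 7 mice a group the number of arrays limits what can be detected. The within-mouse correlation was −0.0090, so lesions of 1 mouse counted nearly as separate tumours. These p-values thus measure the spread between these tumours, with mouse 608 entering as 3 lesions. With 1 mean for each mouse the difference was −0.021 ± 0.040 (standard error) for chromosome 9 and 0.016 ± 0.039 (standard error) for chromosome 12. Neither passed (adjusted p = 0.890 for each in limma).
The slides went different ways. On slide 1, which held both lesions with the whole losses, the difference was −0.21 for chromosome 9 and −0.21 for chromosome 12 (adjusted p = 0.202 for each in limma). On slide 2, which held 2064 L1, it was 0.061 and 0.16 (adjusted p = 0.157 and 0.0568 in limma), and on slide 3, with 1 CD-HFD tumour, −0.012 and 0.036. Without mouse 608 the chromosome 9 difference was 0.026, on the other side of 0. Without mouse 2064 the chromosome 12 difference was −0.031.

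The lost share, the percentage of a chromosome's probes in segments at or below −0.2, was compared between the groups as well. Before GC correction it counts the GC-rich pieces along with the whole losses. In anti-PD1 mice 13.3% ± 27.1 (SD, n = 7) of chromosome 9 was lost on average, compared with 2.36% ± 4.47 (SD, n = 7) in CD-HFD mice, which is 10.9 percentage points more (p = 0.409, adjusted p = 0.917, exact permutation of mice over 3432 splits, two-sided). Without mouse 608 this difference was 0.781 points. On chromosome 12 the means were 16.0% ± 22.9 and 15.5% ± 20.1 (SD, n = 7 each), 0.50 points apart (p = 0.957, adjusted p = 1, exact permutation). After GC correction, with the whole losses alone left, the differences were 9.52 points for chromosome 9 and 2.38 points for chromosome 12 (p = 1 for each, exact permutation). For chromosome 9 only mouse 608 then had a share above 0, so every split gives a difference of this size and p could take no other value. For chromosome 12 only mice 608 and 2064 had one, and with them in opposite groups the difference is the smallest that a split can give. These permutations therefore decide nothing about the groups. Whole losses of chromosome 9 occurred in 2 of 12 anti-PD1 and 0 of 9 CD-HFD tumours, and those of chromosome 12 in 2 of 12 and 1 of 9.

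Along the chromosomes, 0 of 204 windows of 1 Mb passed between the groups in limma, and before adjustment 0 reached a p under 0.05. Over the genome 0 of 2219 windows passed (0.00%) and 20 reached it before adjustment. The smallest p on chromosome 9 was in the window from 72000001 to 73000000, which holds *Ccpg1* and *Mns1*, with a mean of 0.042 over anti-PD1 tumours and 0.15 over CD-HFD tumours (difference −0.11 ± 0.056 as standard error, adjusted p = 0.999 in limma). On chromosome 12 it was in the window from 51000001 to 52000000 with *Prkd1*, a protein kinase D gene (difference 0.098 ± 0.068 as standard error, adjusted p = 0.999 in limma).
By median over all tumours the lowest window of chromosome 9, from 114000001 to 115000000 with *Ccr4* and the *Cmtm6* to *Cmtm8* cluster, had a median of −0.29 (from −0.49 to 0.11). The lowest on chromosome 12, from 110000001 to 111000000 with *Dlk1*, *Meg3*, *Rtl1*, *Rian* and *Mirg*, had one of −0.40 (from −0.84 to −0.16). It lies in the last 8 Mb of chromosome 12, whose median was −0.27 before and −0.033 after GC correction, so its level is not read as a loss in every tumour. The highest on chromosome 9, from 124000001 to 125000000 with *Ccr2*, had a median of 0.69 (from 0.017 to 1.07). There the 8 tumours of slide 1 lay between 0.017 and 0.48 and the 13 of slides 2 and 3 between 0.57 and 1.07, without overlap between the designs. The highest on chromosome 12, from 108000001 to 109000000, had a median of 0.64. In that window too the 8 tumours of slide 1 lay between −0.67 and −0.19 and the 13 tumours of slides 2 and 3 between 0.16 and 0.87, without overlap, and the slides carry different probes.

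Genes were read as the mean of all probes within 500 kb, so neighbours share probes and are not separate measurements. Of 84 listed genes 81 could be measured on both designs, and *Cxcr6*, *Zfp36l1* and *Adam17* could not. In limma 0 of the 81 passed between the groups, and before adjustment 0 reached a p under 0.05. Over all genes 0 of 22945 passed (0.00%) and 119 reached it before adjustment. By sign alone, without a test, all 44 measured listed genes of chromosome 9 had a lower fitted level with anti-PD1, with list medians of the difference from −0.060 to −0.040, where the median over all genes was −0.011. Of the 37 listed genes of chromosome 12, 14 were lower with anti-PD1. Genes of one chromosome share its level, so these counts restate the chromosome differences, and that of chromosome 9 turned when mouse 608 was left out. Relative to the median array, 43 of the 44 genes of chromosome 9 were below 0 in 608 L1, 44 in 608 L6, 44 in 608 L3 and 32 in 2064 L1. All 37 genes of chromosome 12 were below 0 in 608 L1, in 608 L6 and in 2064 L1, and 1 was in 608 L3.
The genes named next are those with the lowest and the highest median level of each list. Medians of different genes rest on different probes with their own offsets, so they name genes and do not order copy numbers. Relative to the median array the medians of the genes so named lay near 0, from −0.036 (*Dio3*) to 0.027 (*Acat1*).

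Among the tumour suppressors and genome guardians of chromosome 9 (12 genes), *Keap1*, which holds the stress factor NRF2 in check, had the lowest median level, −0.31 (from −0.58 to 0.12), in the GC-rich stretch described above, and *Atm*, the kinase that signals DNA breaks, the highest, 0.26 (from −0.48 to 0.48). Relative to the median array *Atm* was at −0.47 in 608 L1 and −0.28 in 608 L6, and in the 18 tumours other than these and 2064 L1 it ran from −0.073 to 0.16. *Keap1* was at 0.0048 in 608 L1 and −0.31 in 608 L6, and it was the gene of the 44 that was not below 0 in 608 L1.
Of the 11 growth and survival genes, *Myd88*, the adaptor of Toll-like receptors, had the lowest median (−0.29) and *Birc3*, an inhibitor of apoptosis, the highest (0.077). *Birc3*, *Birc2* and *Yap1* lie next to each other, a place of gains in some liver tumours of mice, and relative to the median array they were at −0.37, −0.37 and −0.39 in 608 L1 and −0.25, −0.25 and −0.27 in 608 L6. In the 18 tumours other than these and 2064 L1 *Yap1* did not pass 0.17.
Of the 11 genes of liver metabolism, *Cyp8b1*, the sterol hydroxylase that makes cholic acid, had the lowest median (−0.20) and *Acat1*, a mitochondrial enzyme of ketone and isoleucine metabolism, the highest (0.28). In 608 L6 they were at −0.31 and −0.28 relative to the median array, and in 608 L1 at −0.12 and −0.46. Of the 10 T cell and chemokine receptor genes measured, *Icam1*, an adhesion molecule, was lowest by median (−0.32) and *Ccr2*, a chemokine receptor of monocytes, highest (0.24). *Ccr2* was at −0.39 in 608 L1 and −0.21 in 608 L6 relative to the median array, and the other 18 tumours ran from −0.12 to 0.15.

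On chromosome 12, *Traf3*, an inhibitor of NF-kappaB signalling, had the lowest median of the 11 tumour suppressors measured (−0.24) and *Fancm*, a helicase of the Fanconi anaemia pathway, the highest (0.42). Relative to the median array *Fancm* was at −0.51 in 608 L1, −0.25 in 608 L6 and −0.31 in 2064 L1, and the other 18 tumours ran from −0.10 to 0.27. All 3 tumours with a whole loss lay below the rest at this gene.
Of the 12 growth and survival genes, *Akt1* was lowest by median (−0.36, from −0.70 to −0.071) and *Rrm2*, which makes deoxyribonucleotides, highest (0.26). *Rrm2* was at −0.20, −0.31 and −0.41 in 608 L1, 608 L6 and 2064 L1 relative to the median array, against −0.064 to 0.20 in the other 18. *Akt1* was at −0.0075, −0.33 and −0.16 in the same tumours, inside the range of the other 18 (−0.20 to 0.29) for 608 L1 and 2064 L1.
Of the 8 genes of liver metabolism measured, *Serpina12*, which encodes the adipokine vaspin, was lowest by median (−0.23) and *Apob* highest (0.075). *Apob* was at −0.31, −0.22 and −0.29 in the 3 tumours relative to the median array, and as low as −0.35 in another tumour.
In the imprinted domain (6 genes) *Dlk1*, an inhibitor of NOTCH signalling, had a median of −0.36 and *Dio3*, a thyroid hormone deiodinase, one of −0.19. *Dlk1* was at −0.31 in 608 L1, −0.36 in 608 L6 and −0.27 in 2064 L1 relative to the median array, against −0.20 to 0.15 in the others. The arrays do not tell the maternal from the paternal copy, so which of the imprinted copies was lost was not tested.

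**Figure D5:**
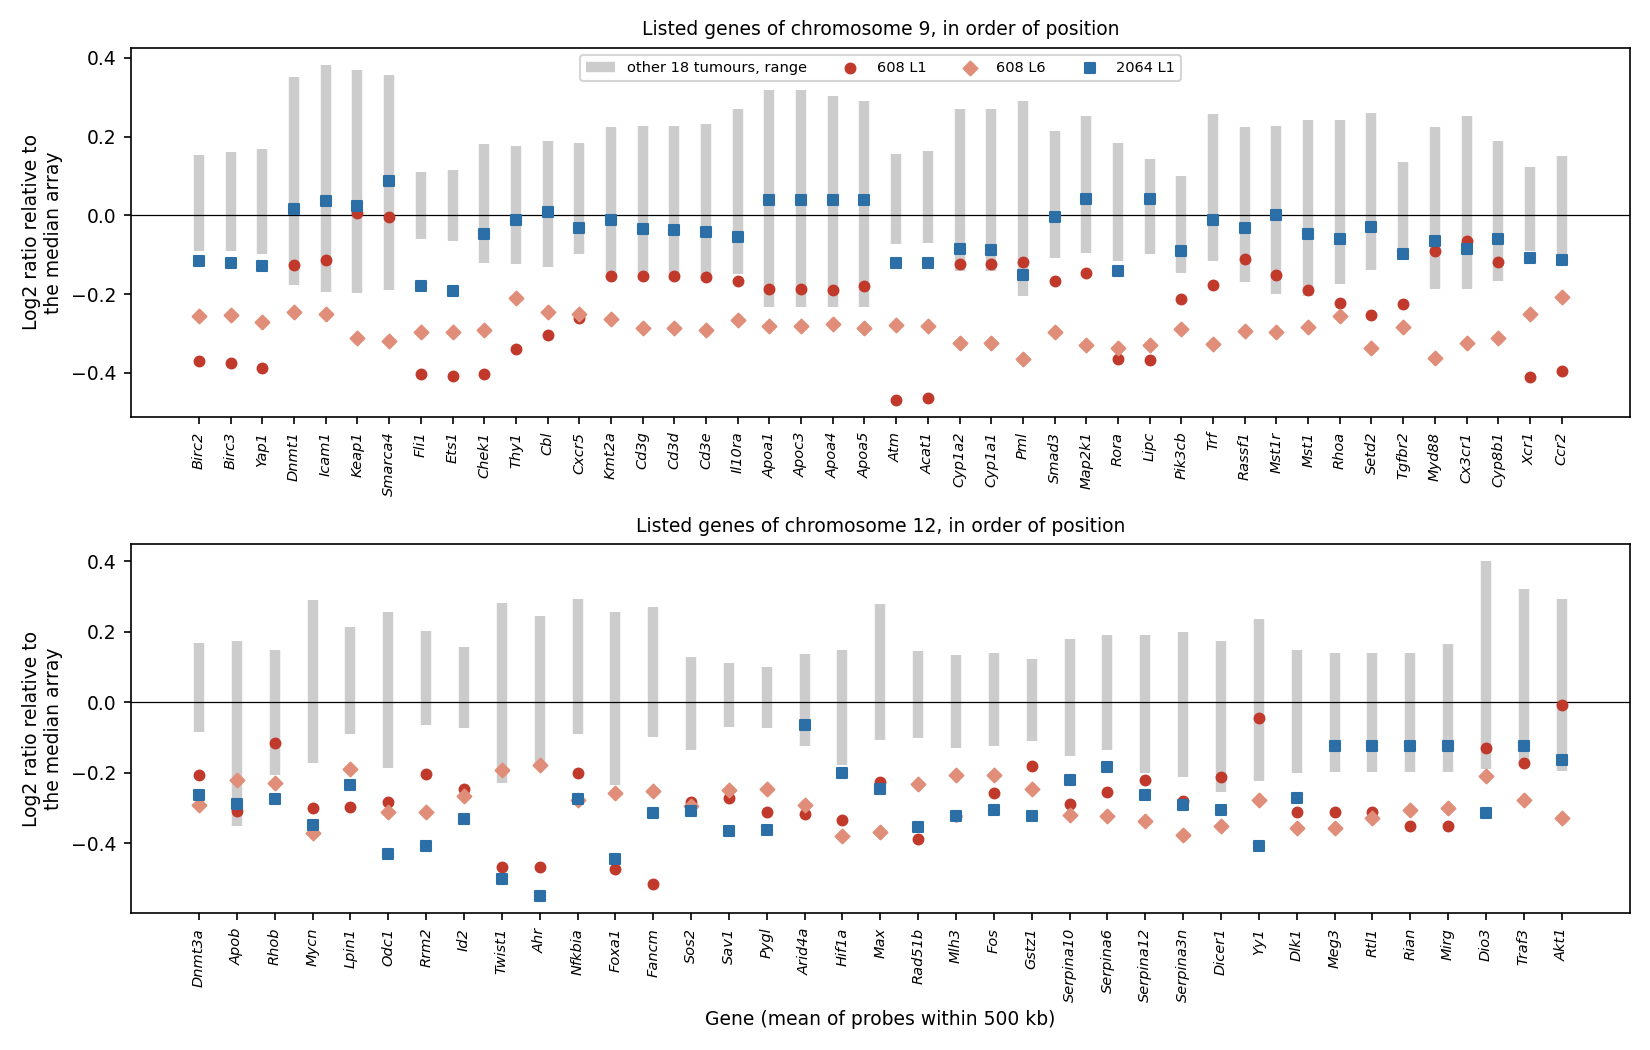
Log2 ratio relative to the median array (y axis) of the 44 measured genes listed on chromosome 9 (top) and the 37 on chromosome 12 (bottom), each the mean of probes within 500 kb (x axis, in order of position), for 608 L1, 608 L6 and 2064 L1, with grey bars for the range of the other 18 tumours. All genes of chromosome 12 lie below 0 in the 3 tumours, and on chromosome 9 all of 608 L6 and 32 of the 44 of 2064 L1 do.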

How the data were processed

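DNA of 21 tumours was hybridized to 2-colour arrays. The authors deposited the scanner output of each array, with the processed intensities of both dyes (background-subtracted and dye-normalized), and log2 ratios after loess normalization for probes common to both designs. The sources used here state no further method for this assay. Here processed intensities of the tumour were divided by those of the reference, taken to log2 and shifted to a median of 0 per array. Control spots were left out, as were spots with outlier marks (0.149 to 0.386% per array). Groups were compared in R 4.3.3 with limma 3.58.1 (lmFit, duplicateCorrelation by mouse, eBayes), two-sided and at a Benjamini-Hochberg adjusted p of 0.05. The within-mouse correlation of chromosome levels was −0.0090. Segments came from optimal partitioning (penalty factor 3, at least 10 probes) in Python 3.11.15, lost at or below −0.2, and a loss was whole at 90% of the probes. The GC correction used GRCm38, where 96458 of 96471 probes were placed. The limma fits and the segmentation were tested on simulated data. The members, the gene lists and the tests were chosen with earlier results of these data known. Further listed genes are not reported here. Genes were named as the lowest and the highest median of each list, windows as the smallest p and the lowest and highest median on each chromosome, and the probes printed were chosen by place. Alternatives were normexp (offset 50), the loess-normalized table, probes well above background, common probes, other centring, windows of 5 Mb, other thresholds, a doubled penalty, array weights, slide as a block and each mouse left out. Subtraction of the median profile, the whole-loss counts under other settings and the relation without tumours with whole losses were chosen after seeing the data.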

Additional observations from a re-analysis of the deposited data

Results flagged for a closer look

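Among the 7 mice of a group, 1 mouse often stood apart from the rest by Dixon's measure, the gap to the nearest mouse over the range of the group. The 8 groups examined this way were the level and the lost share of both chromosomes in both treatment groups, and no chance rate is given for them. The levels chose both chromosomes, so the mice that stand apart restate the known losses and are no test of them. In the anti-PD1 group mouse 608, the mean of 3 lesions, had a chromosome 9 level of −0.29, the next mouse being at −0.027, and a chromosome 12 level of −0.20, the next being at −0.00055. Its lost share was 74.2% of chromosome 9, against 8.55% in the next mouse, and 66.7% of chromosome 12, against 16.7%. In the CD-HFD group mouse 2064, the mean of 2 lesions, had a chromosome 12 level of −0.16, the next being at −0.046, and a lost share of 57.1%, against 22.7%. Mouse 1770 had the largest lost share of chromosome 9 on CD-HFD, 12.2% against 3.07%, from lesion 4 alone, whose 24.3% was 0 after GC correction.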

How the results depend on the processing

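In limma no window, listed gene or chromosome level on chromosomes 9 and 12 passed the threshold between the groups under any alternative. Array weights gave 32 of 204 windows and 18 of 81 listed genes at an unadjusted p under 0.05, with 0 passing (smallest adjusted p in limma 0.319 and 0.161). The share over all windows and all genes under array weights is not given, so these counts are not read as particular to chromosomes 9 and 12. The chromosome 9 difference of −0.047 turned to 0.0055 with array weights and 0.061 within slide 2, and ran from −0.083 to 0.026 with each mouse left out, turning without mouse 608. The chromosome 12 difference of 0.0061 turned to −0.023 with slide as a block and −0.21 within slide 1, and ran from −0.031 to 0.064, turning without mouse 612, 2094, 2116 or 2064. The lost share difference of chromosome 12, 0.50 points, was −1.45 with a doubled penalty and ran from −7.94 to 7.43 with each mouse left out, turning without mouse 608, 1770, 2067, 2085 or 2115. That of chromosome 9 ran from 0.781 to 13.1. The relation of both levels (r 0.85) was 0.77 within CD-HFD, 0.99 within slide 1 and −0.53 within slide 3, and from 0.79 to 0.90 with each mouse left out. In alternatives chosen after seeing the data it was 0.31 without the 3 tumours with a whole loss, and 0.23 on GC-corrected probes without them. Without them and 608 L3 it was 0.93, and 0.96 on GC-corrected probes. Normexp background correction shrank the levels of 608 L1 to −0.17 and −0.18 and left 1 whole loss of each chromosome, both in 608 L6, and it put 1770 L1 at −7.8e-05 on chromosome 9 and −0.0037 on chromosome 12. The loess-normalized table gave 2064 L1 −0.19 and −0.41. With −0.3 as threshold 2 whole losses of chromosome 12 were counted. The cause of these shifts was not tested. No paired analysis was possible because each mouse had only one treatment. Dim arrays such as that of 608 L1 limit single windows and genes most.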
